A study of Mus musculus with 2 samples.

Results

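The 2516 sites described here are stretches of open chromatin that lie between genes, within 50 kb of the start of a protein-coding gene, and that were called as peaks in both libraries of a DNase-seq experiment. They were selected on the peak lists themselves. In each library the shorter of its 2 deposited peak lists was taken, and a replicate 1 peak was kept when it was overlapped by a replicate 2 peak over no less than 50% of the length of one or the other. The midpoint of a kept peak had to lie outside every protein-coding gene body, more than 1 kb and at most 50 kb from the nearest protein-coding transcription start site (TSS), and more than 1 kb from the TSS of a gene of any type (GENCODE M21 annotation of the mouse genome build mm10, also called GRCm38). The 2516 sites were 2.19% of the 114758 peaks of replicate 1 and 13.2% of the 19119 replicate 1 peaks of any place that were shared. Of the 19633 replicate 1 peaks in such intergenic places 12.8% were shared, against 16.7% of all replicate 1 peaks. Overlap, place and, through peak calling, height chose the members, so these values are a description and carry no test.

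The material was gastrocnemius, a calf muscle of the hindlimb, from female B6CASTF1/J mice aged 10 days. B6CASTF1/J mice are first-generation hybrids of the C57BL/6J and CAST/EiJ strains. Tissue of 3 females was pooled for each of the 2 libraries, which the labels number as biological replicates 1 and 2 of a single group. There was no other tissue, age, sex or treatment, so no comparison between conditions could be made, and with 2 libraries no test across samples was run. Whole muscle is a mixture of fibre nuclei, satellite cells, fibroblasts, vessel, nerve and blood cells, and in such bulk material fewer nuclei of a type with an open site and less opening per nucleus cannot be told apart. All sequences below are those of the reference genome, not of the hybrid animals.

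The libraries differed in their numbers of peaks and footprints and at the promoters of marker genes. The shorter list of replicate 2 held 26804 peaks, and the libraries had 468215 and 115528 deposited footprints. Promoters, taken as peaks with their midpoint within 1 kb of a TSS of the gene, were checked for lists of tissue markers. In the library labelled replicate 1 all 12 neuronal markers had a promoter peak, with heights between 1.67 and 16.1 that summed to 86.7. In replicate 2 a peak stood at 5 of the 12, the highest at 2.05, and the heights summed to 6.50, with Neurod2, Tubb3 and Elavl3 at 0. Of 16 limb position genes, mostly posterior Hox genes, 2 had a promoter peak in the library labelled replicate 1 and 10 in replicate 2, with sums of 2.63 and 15.9, and Hoxa9, Hoxa10, Hoxa11 and Hoxa13 were at 0 in replicate 1 alone. The 2 genes of replicate 1, Hoxc5 and Hoxc10, had the same heights in each library (1.31 and 2.11), so a single peak may be counted for both. In neither library did 6 of the 16 have a peak, among them Pitx1 and Tbx4. Of 20 fast-fibre and sarcomere genes 10 had a promoter peak in replicate 1 and 5 in replicate 2, with sums of 51.1 and 12.4. Myh1, Myh2 and Myh4, which encode the adult fast myosins, had none in either. Of 12 slow-fibre genes 6 and 2 had one, and of 27 myogenic regulators and satellite cell genes 24 and 19. Heights at 15 housekeeping promoters also summed to more in replicate 1, at 228 against 47.7. Promoter peaks of neuronal and limb position genes thus moved with the replicate number, as did the number of peaks, and their part in what follows was not tested. For that reason the same measures are given below for the 3297 replicate 2 peaks of the same places taken alone, which do not use replicate 1.

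Open sites between genes include enhancers, insulators and the starts of transcripts that an annotation does not list. CTCF is a zinc-finger protein that binds a long motif, holds chromatin loops together with cohesin and occupies many of the same places in most cell types. Transfer RNA (tRNA) genes are transcribed by RNA polymerase III from promoter elements inside the gene, the A box and the B box, which the factor TFIIIC binds, while TFIIIB sits just upstream of the gene start. A footprint is a short stretch inside an open site where cutting by DNase I is reduced, as happens under a bound protein.

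The most frequent motif at these sites was that of CTCF, and the following 40-base windows show it at 6 sites where it lay in a footprint of both libraries. The first is the best-ranked such site by height, and the other windows were chosen after their values were seen. Each window is written 5' to 3' on the strand that holds the motif, and capitals mark the motif. The names give the nearest protein-coding gene, the place of the window (GRCm38) and the strand.
Psrc1, chr3:108389438-108389477, minus strand: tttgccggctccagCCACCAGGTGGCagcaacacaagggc
Lag3, chr6:124903736-124903775, plus strand: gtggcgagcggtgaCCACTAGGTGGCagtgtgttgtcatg
Rdh8, chr9:20831171-20831210, minus strand: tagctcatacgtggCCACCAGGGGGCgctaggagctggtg
Olfr750, chr14:51064947-51064986, minus strand: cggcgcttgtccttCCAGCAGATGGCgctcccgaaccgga
Ptma, chr1:86501769-86501808, plus strand: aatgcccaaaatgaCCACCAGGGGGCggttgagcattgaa
Gpr142, chr11:114812792-114812831, plus strand: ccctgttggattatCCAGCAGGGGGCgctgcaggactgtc

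A second feature of the sites was the presence of tRNA genes. The 5 genes below, chosen after their values were seen, overlapped, wholly or in part, sites that were tall in both libraries. Each gene holds the B box, marked by capitals, which is not always inside the site. The sequences are the gene as listed by RefSeq (tRNAscan-SE models), on the gene's own strand.
n-TTagt9, chr7:35234770-35234843, minus strand: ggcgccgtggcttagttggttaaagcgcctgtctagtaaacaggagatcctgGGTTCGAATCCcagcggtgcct
n-TRccg1, chr11:107012866-107012938, plus strand: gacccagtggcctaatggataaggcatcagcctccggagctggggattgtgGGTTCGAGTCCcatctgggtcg
n-THgtg3, chr2:122377363-122377434, minus strand: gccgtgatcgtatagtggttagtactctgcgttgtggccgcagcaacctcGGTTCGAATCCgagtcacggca
n-TLcag4, chr8:94704004-94704086, minus strand: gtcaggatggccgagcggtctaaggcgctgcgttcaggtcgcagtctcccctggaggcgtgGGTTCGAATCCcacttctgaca
n-TScga3, chr11:69110919-69111000, plus strand: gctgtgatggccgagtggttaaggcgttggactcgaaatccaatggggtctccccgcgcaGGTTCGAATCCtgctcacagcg
The B box letters are the same in all but n-TRccg1, and the letters outside the B box differ between the genes. The genes are for tRNAs of threonine, arginine, histidine, leucine and serine in that order.

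Sites near muscle and immediate-early genes, with other motifs, are written out next, on the plus strand of GRCm38. Capitals mark the muscle E-box CAGCTG at the Myl3 site, the letters TTGGCA (a single arm of the nuclear factor I motif, on either strand) at the Myog and Nfix sites, the GC box GGGGCGG at the Nfix and Ier2 sites, the CTCF motif at the Pax7, Eya2 and Psrc1 sites, and the ETS motif CCGGAAG at the Ier2 site. They mark the serum response factor motif (CArG box) at the Btg2 site, the AP-1 motif TGACTCA at the Fmnl1 site, the cAMP response element TGACGTCA at the Tle2 site and the NRF1 motif at the Foxk1 site. The Fmnl1, Tle2, Foxk1 and Psrc1 sites were the best-ranked sites by height whose motif lay in a footprint of both libraries. The Myog sequence is the central 300 bases of its peak, and the Btg2 site was chosen after its values were seen.
Psrc1, chr3:108389321-108389520, plus strand: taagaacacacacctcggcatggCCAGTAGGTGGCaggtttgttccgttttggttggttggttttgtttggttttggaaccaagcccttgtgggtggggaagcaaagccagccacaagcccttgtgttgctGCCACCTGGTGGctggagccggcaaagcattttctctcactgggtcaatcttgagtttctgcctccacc
Fmnl1, chr11:103159081-103159280, plus strand: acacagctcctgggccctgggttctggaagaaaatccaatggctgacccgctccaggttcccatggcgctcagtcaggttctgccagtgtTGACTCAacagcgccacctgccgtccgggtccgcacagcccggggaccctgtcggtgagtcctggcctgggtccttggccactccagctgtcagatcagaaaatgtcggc
Tle2, chr10:81571641-81571840, plus strand: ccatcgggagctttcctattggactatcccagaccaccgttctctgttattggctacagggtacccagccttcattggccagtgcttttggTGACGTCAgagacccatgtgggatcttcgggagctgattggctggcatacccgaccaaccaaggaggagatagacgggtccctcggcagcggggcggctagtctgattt
Foxk1, chr5:142367321-142367520, plus strand: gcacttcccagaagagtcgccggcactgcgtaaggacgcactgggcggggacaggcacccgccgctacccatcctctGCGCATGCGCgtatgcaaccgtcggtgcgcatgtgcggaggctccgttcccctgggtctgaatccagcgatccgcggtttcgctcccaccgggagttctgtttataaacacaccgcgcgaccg
Myl3, chr9:110781881-110782080, plus strand: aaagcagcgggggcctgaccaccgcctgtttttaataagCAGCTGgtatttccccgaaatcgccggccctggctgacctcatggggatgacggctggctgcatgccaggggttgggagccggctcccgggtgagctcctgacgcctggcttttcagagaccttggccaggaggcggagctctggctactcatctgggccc
Myog, chr1:134275991-134276290, plus strand: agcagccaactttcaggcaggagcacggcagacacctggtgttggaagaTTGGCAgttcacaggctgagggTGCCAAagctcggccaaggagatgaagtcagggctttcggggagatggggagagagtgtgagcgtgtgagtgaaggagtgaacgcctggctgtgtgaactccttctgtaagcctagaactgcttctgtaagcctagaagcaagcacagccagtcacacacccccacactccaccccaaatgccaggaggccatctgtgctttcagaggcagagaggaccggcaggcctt
Nfix, chr8:84810961-84811160, plus strand: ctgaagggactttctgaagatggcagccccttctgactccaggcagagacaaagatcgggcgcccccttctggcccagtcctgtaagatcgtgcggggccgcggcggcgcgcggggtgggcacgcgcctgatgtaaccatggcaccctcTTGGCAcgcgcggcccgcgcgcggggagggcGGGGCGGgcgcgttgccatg
Pax7, chr4:139858761-139858940, plus strand: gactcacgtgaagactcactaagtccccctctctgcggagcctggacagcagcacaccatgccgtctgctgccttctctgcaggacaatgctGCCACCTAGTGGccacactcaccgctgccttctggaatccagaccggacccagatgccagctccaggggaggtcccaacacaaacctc
Eya2, chr2:165782421-165782620, plus strand: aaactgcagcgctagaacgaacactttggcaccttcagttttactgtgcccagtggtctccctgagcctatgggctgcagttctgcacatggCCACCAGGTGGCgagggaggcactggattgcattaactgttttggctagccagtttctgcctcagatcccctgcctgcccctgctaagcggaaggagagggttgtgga
Ier2, chr8:84663961-84664180, plus strand: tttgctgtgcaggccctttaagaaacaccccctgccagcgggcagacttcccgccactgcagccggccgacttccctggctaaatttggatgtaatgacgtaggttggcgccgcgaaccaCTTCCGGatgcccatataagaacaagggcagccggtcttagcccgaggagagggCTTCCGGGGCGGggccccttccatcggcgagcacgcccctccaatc
Btg2, chr1:134092961-134093240, plus strand: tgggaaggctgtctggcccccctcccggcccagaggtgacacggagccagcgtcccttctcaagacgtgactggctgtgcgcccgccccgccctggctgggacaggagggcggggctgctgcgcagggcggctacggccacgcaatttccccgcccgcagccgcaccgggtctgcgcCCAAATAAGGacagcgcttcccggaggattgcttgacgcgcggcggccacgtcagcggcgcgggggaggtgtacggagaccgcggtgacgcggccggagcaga
In the Ier2 site the second ETS match and the GC box share bases, so a single run of capitals covers both.

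Peak height is the deposited signal maximum of a peak, normalized by the authors. Over the 2516 sites it had a median of 3.20 in replicate 1 (quartiles 1.97 and 4.92, range 0.101 to 28.7) and of 1.54 in replicate 2 (quartiles 1.16 and 2.11, range 0.204 to 37.0). The sites were taller than the peaks they were drawn from: the median over all replicate 1 peaks was 1.18, and over the 17117 intergenic replicate 1 peaks of the same places without a partner it was 1.03. Replicate 2 peaks of these places taken alone had a median of 1.37. Between libraries, 2166 sites (86.1%) were taller in replicate 1 and 350 (13.9%) in replicate 2, with a median log2 ratio of 0.97 (replicate 1 over replicate 2). Across sites, which share libraries and are not replicates, the heights had a Spearman correlation of 0.53 (n = 2516). Of the 251 tallest sites of each library 94 were tallest in both. The heights were spaced in steps of 0.00597 in replicate 1 and 0.0107 in replicate 2, so the median site stood at 537 and 144 steps and the lowest at 17 and 19. Whether a step is 1 count is not given in the sources used here.

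**Figure D1:**
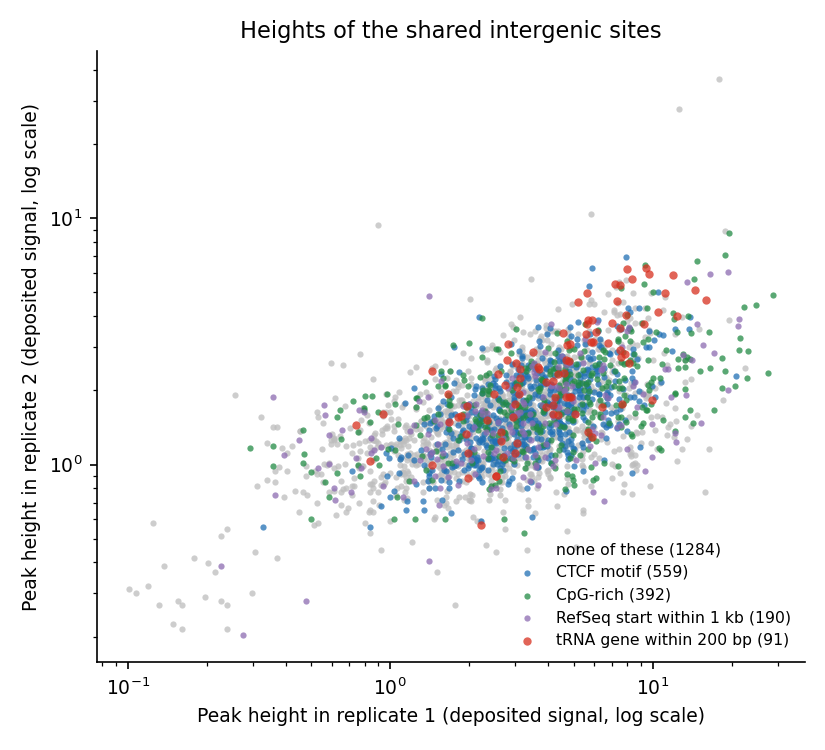
Peak height of each of the 2516 sites in replicate 1 (x axis, deposited signal, log scale) and replicate 2 (y axis, deposited signal, log scale), coloured by the 5 groups used in the text. Most points lie to the right of equal heights, with medians of 3.20 and 1.54, and the 91 sites at tRNA genes spread over much of both axes around medians of 4.58 and 2.33.

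The tallest sites in both libraries together were next to genes of many functions. By the sum of height ranks the first was 34.1 kb upstream of Foxk1, which encodes a forkhead transcription factor, with heights of 19.6 and 8.75 in replicates 1 and 2. The Igf2bp3 site, 21.6 kb upstream of the gene for an RNA-binding protein, stood at 17.9 and 37.0, but 84.8% of its 36-base words occur more than once in the genome. Sites upstream of Txn2, the mitochondrial thioredoxin (18.8 and 8.90), and of Pum2, an RNA-binding repressor of translation (18.9 and 7.08), came next. These 4 were among the tallest in each library, and only the Igf2bp3 site was taller in replicate 2. Prothymosin alpha, Ptma, had 5 sites, between 1.34 and 39.1 kb from its TSS, with heights from 7.15 to 28.7 in replicate 1 and from 2.40 to 4.87 in replicate 2. The Ptma site 1.34 kb upstream was the tallest of all sites in replicate 1 and did not lead in replicate 2.

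The sites became sparser with distance from the nearest coding TSS. Per Mb of intergenic territory, of which there were 516 Mb, the density fell from 10.1 sites at 1 to 2 kb to 6.60 at 2 to 5 kb, 4.89 at 10 to 20 kb and 3.00 at 40 to 50 kb. The share of replicate 1 peaks that were shared fell alongside, from 16.7% at 1 to 2 kb to 8.79% at 40 to 50 kb, whereas replicate 1 peaks of any kind went from 60.1 to 34.1 per Mb. The median distance was 13600 bp, and 1538 sites (61.1%) lay upstream of their nearest gene. The rule removed gene bodies, which lie downstream of a TSS. The upstream share was not computed for other peaks or for the territory, so it is not a trait of the sites. The make-up changed with distance too. The CTCF motif was found at 13.48% of the sites within 2 kb and 25.8% of those beyond 40 kb, CpG-rich sites made up 44.9% and 20.4%, and sites at tRNA genes 2.81% and 1.08%, with the highest share, 5.60%, at 2 to 5 kb. The distance itself was used by the rule, so its limits are fixed by it.

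**Figure D2:**
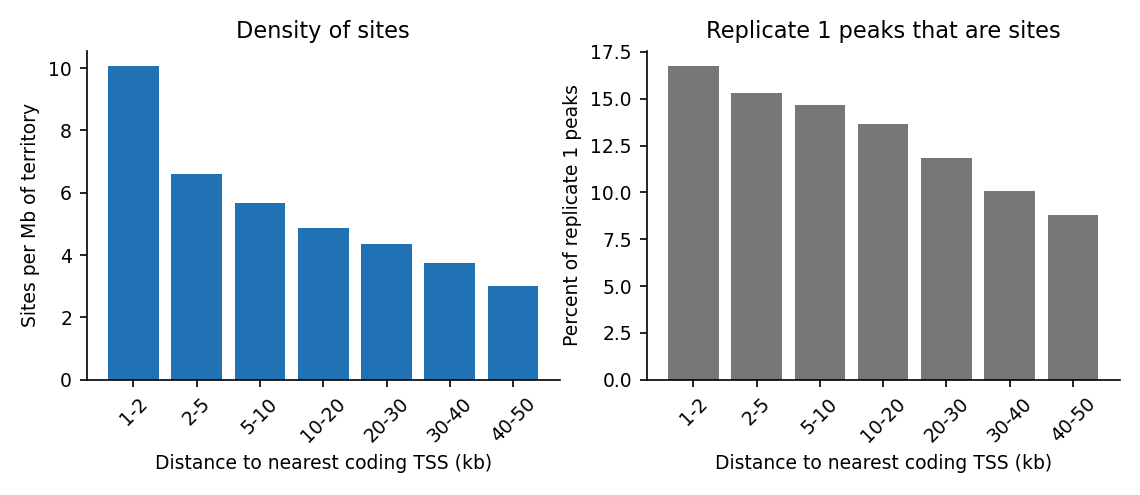
Sites per Mb of intergenic territory (left) and percent of replicate 1 peaks that are sites (right), each in 7 bins of distance to the nearest protein-coding TSS (kb). Bars fall from 10.1 to 3.00 sites per Mb and from 16.7% to 8.79%.

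By chromosome the density ran from 1.09 sites per Mb on the X to 9.64 on chromosome 11, which held 249 sites. Chromosome 15 followed at 7.999 per Mb. The X held 41 sites, and its replicate 1 peaks were sparse as well, at 10.7 per Mb against 68.0 on chromosome 11, of which 10.2% were shared. The Y held none.

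Nearly every site held a footprint in both libraries. In replicate 1 97.9% did (Wilson 95% interval 97.3 to 98.4, which here and below covers counting error only) against 91.5% of all replicate 1 peaks, and in replicate 2 95.9% did (95.02 to 96.6) against 23.7% of all replicate 1 peaks. A footprint of both libraries was present at 2381 sites (94.6%) and of neither at 22. Replicate 2 footprints were thus present where a replicate 2 peak was, and footprints come from the same cuts as peaks, so the high share in replicate 2 follows the selection. Taken alone, 85.1% of the 3297 replicate 2 peaks of these places held one. Shared peaks in gene bodies (93.6% in replicate 2) and beyond 50 kb from a gene (92.7%) were close to these sites. The sites carried 9015 footprints in replicate 1, with a median width of 18 bp, and 5981 in replicate 2, with a median of 11 bp. Of these 44.2% and 77.2% were overlapped by a footprint of the other library.

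CTCF motifs were 105 times as frequent in the sites as in sequence 1 kb to either side. In the central 150 bp of 578 sites the motif was present, a share of 23.0% (21.4 to 24.7), against 11 windows or 0.219% (0.122 to 0.391) at 1 kb. Over all replicate 1 peaks the share was 4.55%. It was 22.7% at shared gene-body peaks, 14.9% at shared peaks beyond 50 kb, 1.61% at shared promoters and 6.98% at intergenic replicate 1 peaks without a partner. Replicate 2 peaks taken alone had it at 16.3%, and the 809 of them that replicate 1 did not overlap had it at 3, or 0.371%. CTCF motifs were thus almost absent from the intergenic peaks found in replicate 2 alone. The sites were also split into 4 equal classes of replicate 1 height. From lowest to highest they held the motif at 13.4%, 27.2%, 29.6% and 21.7%, and unpartnered replicate 1 peaks in the same classes at 6.05%, 12.49%, 9.51% and 4.07%. The classes are broad, the lowest from 0.101 to 1.97, and heights within a class were not matched, so the part of height was not tested.

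The footprints sat on the motif. Of 587 CTCF matches in the central windows, 99.1% (98.0 to 99.6) lay in a replicate 1 footprint and 92.5% (90.1 to 94.4) in a replicate 2 footprint, while of all central bases 39.6% and 21.7% did, and 542 matches lay in footprints of both. Along the motif strand, footprint cover was highest at 1 bp from the motif centre in both libraries, at 99.3% and 92.5%. It fell to a mean of 2.85% and 2.56% from 20 to 40 bp downstream. Upstream a second protected stretch from 27 to 14 bp before the centre had a mean of 52.3% and 30.6%, highest at 56.9% and 35.9%, with a gap at 42 to 30 bp upstream where the mean was 3.88% and 1.73%. Within 40 bp of the centre the pattern was one-sided in both libraries. Farther out replicate 1 cover rose again on both sides, to 66.8% at 60 bp downstream and 45.5% at 60 bp upstream. Replicate 2 stood at 16.7% and 10.7% there. The capitals in the windows above mark the letters under the central stretch. At the Psrc1 site, whose heights were 10.5 and 5.02, the sequence holds 2 matches.

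**Figure D3:**
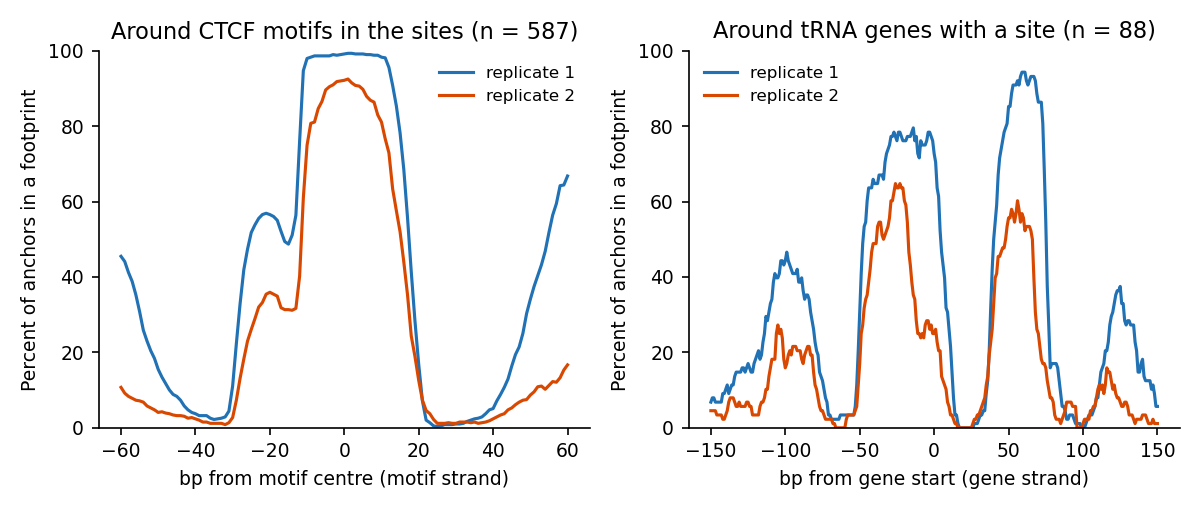
Percent of anchors covered by a footprint at each base, in replicate 1 and replicate 2, around 587 CTCF motifs (bp from the motif centre, motif strand) and along 88 tRNA genes that overlap or adjoin a site (bp from the gene start, gene strand). Both libraries peak at the CTCF centre (99.3% and 92.5%), and at tRNA genes both are low at 10 to 35 bp and high on either side of it.

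The other 31 motifs searched, on both strands, compared in different ways with the sequence 1 kb away. The GC box GGGGCGG, which SP and KLF factors bind, was in 166 sites, 6.60% against 1.71% at 1 kb and 8.56% of all replicate 1 peaks. The ETS motif CCGGAAG was in 66, 2.62% against 0.795% and 2.70%. The cAMP response element TGACGTCA was in 16, 0.636% against 0.0199% and 0.661%. For these the sites stood above their surroundings but not above the average peak, which includes promoters. The NRF1 motif was in 8 sites (0.318% against 0.0199% at 1 kb and 0.322% of all replicate 1 peaks). For 2 other motifs of promoters the intervals overlap: NFY, CCAATCA, was at 1.95% (1.48 to 2.57) against 1.61% (1.30 to 2.00), and YY1, AAGATGGC, at 1.23% (0.869 to 1.74) against 1.19% (0.928 to 1.53). AP-1, TGACTCA, the motif of FOS and JUN dimers, was in 71 sites, 2.82% (2.24 to 3.54), against 2.19% (1.82 to 2.63) at 1 kb and 2.54% of all replicate 1 peaks, and the intervals overlap. The TEAD motif, spelled ACATTCC, was at 1.75% in both the sites and their surroundings. The RUNX motif, spelled TGTGGTT, was at 2.50% against 4.43% at 1 kb and 2.40% of all replicate 1 peaks. The GATA factor motif, spelled AGATAAG, was at 0.636% against 1.45% and 0.856%. The MEF2 motif, that of a muscle regulator, was in 3 sites, 0.119% against 0.278% and 0.215%. The median GC content was 55.0% at the sites and 47.7% at 1 kb, and its part in these motif shares was not tested.

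A pair of motifs was more frequent in the replicate 1 peaks without a partner than in the shared sites. The muscle E-box CAGCTG, bound by MyoD-family and by neurogenic basic helix-loop-helix factors, was in 361 sites, 14.3% (13.0 to 15.8), against 7.75% at 1 kb, 16.3% of all replicate 1 peaks and 17.2% of the unpartnered ones. Shared peaks of other places were not lower than the unpartnered ones, at 17.2% in gene bodies and 19.3% beyond 50 kb, except shared promoters at 8.45%. The letters TTGGCA, a single arm of the nuclear factor I (NFI) motif and contained in the full motif, were in 262 sites, 10.4% (9.28 to 11.7), against 6.40% at 1 kb, 21.2% of all replicate 1 peaks and 23.1% of the unpartnered ones. Shared peaks held them at 11.6% in gene bodies, 16.7% beyond 50 kb and 5.78% at promoters. The 3297 replicate 2 peaks of these places held TTGGCA at 10.2% and CAGCTG at 13.1%, but 2488 of them are overlapped by replicate 1 peaks, so these are largely values of the shared sites. Within the same 4 classes of height, from lowest to highest, 9.86%, 9.55%, 9.22% and 13.0% of the sites held TTGGCA, and 22.1%, 24.01%, 26.7% and 32.4% of unpartnered replicate 1 peaks. The full NFI motif was in 2 sites. Neuronal promoter peaks moved with the same library, and their part in this was not tested.

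**Figure D4:**
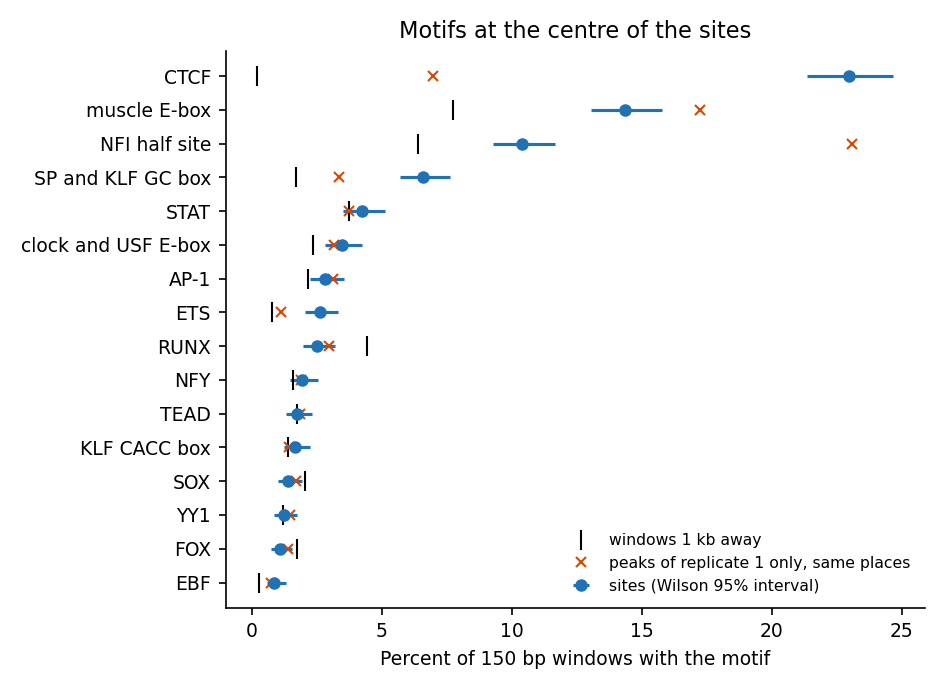
Percent of central 150 bp windows that hold each of 16 motifs, for the 2516 sites (points, with Wilson 95% intervals), for windows 1 kb away (vertical ticks) and for intergenic replicate 1 peaks without a partner (crosses). CTCF stands apart at 23.0% against 0.219%, and the single-arm NFI motif TTGGCA is higher in the unpartnered peaks (23.1%) than in the sites (10.4%).

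Footprints covered these motifs unequally. NFI letters lay in a footprint at 62.1% of matches in replicate 1 and 26.3% in replicate 2. For the cAMP response element the shares were 81.3% and 50% of 16 matches, for YY1 (AAGATGGC) 67.7% and 61.3% of 31, and for the muscle E-box 39.4% and 22.5% of 391, close to the 39.6% and 21.7% of all central bases. AP-1 matches were under a footprint at 20% and 13.33% of 75, below that of all central bases. The tallest site with a TGACTCA in footprints of both libraries was 11.9 kb upstream of Fmnl1, a formin, with heights of 11.2 and 4.78. For the cAMP response element it was 2.82 kb upstream of Tle2, a corepressor, with heights of 21.2 and 3.67.

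Sites at tRNA genes made up a larger share here than of shared peaks in gene bodies, beyond 50 kb or at promoters. This set was looked at after the values of single sites were seen. RefSeq lists 403 tRNA genes on the chromosomes used, and the GENCODE annotation that the rule used holds none, so the rule did not remove them. Within 200 bp of a tRNA gene lay 91 sites, 3.62% (2.96 to 4.42), against 0.211% of all replicate 1 peaks. The share was 0.153% at shared gene-body peaks, 0.279% beyond 50 kb, 0.303% at shared promoters and 0.391% at unpartnered intergenic peaks. For shared peaks at the TSS of noncoding genes it was not computed, though 15 of 41 tRNA genes there had a shared peak. The share was 3.03% (100 peaks) of the 3297 replicate 2 peaks of these places and 0.805% of the 19633 replicate 1 peaks. Most of the former and few of the latter are shared peaks, so these shares follow in part from the overlap. The 91 sites had heights from 0.740 to 15.9 in replicate 1 and from 0.568 to 6.27 in replicate 2, with medians of 4.58 and 2.33, both above the medians of 3.20 and 1.54 over all sites. tRNA genes come in families of near-identical copies, and a median of 22.2% of the 36-base words of these sites occur more than once in the genome. Only 1 of the 91 was at least 50% repeated.

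Of the 223 tRNA genes in intergenic places within 50 kb, 144 (64.6%) were under or within 200 bp of a replicate 1 peak, 93 (41.7%) of a replicate 2 peak and 88 (39.5%) of a shared site. A site was present at 46 of 96 genes with the B box letters (47.9%) and at 42 of 127 without them (33.1%). By amino acid, all 7 glutamate genes, 10 of 12 proline genes and 6 of 8 aspartate genes had a site, against 5 of 20 for lysine, 2 of 13 for alanine, 1 of 7 for tyrosine and 0 of 12 for glutamine. Copies of a family share sequence and often a cluster, so genes are not independent counts. Among the genes printed above, the threonine gene n-TTagt9 (site heights 14.5 and 5.09) and the serine gene n-TScga3 (10.5 and 4.17) lay within their sites. The arginine gene n-TRccg1 (15.9 and 4.67), the histidine gene n-THgtg3 (11.9 and 5.86) and the leucine gene n-TLcag4 (12.4 and 4.01) overlapped theirs only in part. In these partly overlapped genes the B box lay outside the site. All 5 sites were above the upper quartile of height in both libraries.

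Footprints along these 88 genes had 2 parts. From 50 bp upstream to the gene start, the mean cover was 70.5% in replicate 1 and 43.1% in replicate 2, highest at 14 and 26 bp upstream (79.5% and 64.8%). From 10 to 35 bp inside the gene the mean was 4.20% and 2.53%, and it reached 0 at 17 and 16 bp. From 40 to 75 bp it was 82.8% and 44.4%, highest at 59 and 56 bp (94.3% and 60.2%). In the 46 genes with the B box letters these began at a median of 51.5 bp from the gene start (50 to 86), inside this second stretch. Both libraries had the same order of high, low and high cover.

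CpG-rich sites, with a GC content of at least 50% and a CpG observed-to-expected ratio of at least 0.6 over the whole peak, numbered 560, or 22.3% (20.7 to 23.9), against 20.3% of all replicate 1 peaks. All peaks include promoters, and of the shared promoter peaks 82.9% were CpG-rich. Among unpartnered intergenic replicate 1 peaks 5.46% were, and among replicate 2 peaks taken alone 20.6%. The tallest of the 4 height classes in replicate 1 was CpG-rich at 39.4%, against 10.3% of unpartnered peaks in the same class. The GC content had a median of 55.0% at the sites and 47.7% at 1 kb from them. A RefSeq transcript that GENCODE did not place there started within 1 kb of 204 sites, 8.11% (7.10 to 9.24). Over all replicate 1 peaks, which include the promoters that the rule removed, a RefSeq start was that near at 26.3%. The share was 5.39% (5.06 to 5.73) at unpartnered intergenic peaks, 6.13% (5.27 to 7.12) at shared gene-body peaks and 6.60% (5.27 to 8.25) at shared peaks beyond 50 kb. The intervals of the last 2 overlap that of the sites. Of all 2516 sites, 229 (9.10%) lay inside the body of a long noncoding RNA gene, a count that can include sites near a RefSeq start. The same share was not computed for other peaks.

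Each site was put in the first of 5 groups that it met, a division made with the values known: at a tRNA gene (91 sites), near a RefSeq start (190), with a CTCF motif anywhere in the peak (559), CpG-rich (392) and other (1284, or 51.0%). Median heights in replicates 1 and 2 were 4.58 and 2.33 for tRNA sites, 3.26 and 1.47 near RefSeq starts, 3.42 and 1.59 with CTCF, 4.29 and 1.77 for CpG-rich sites and 2.82 and 1.43 for the others. The order of the 5 medians was the same in both libraries. Of the 94 sites in the tallest 251 of both libraries, 12 were at tRNA genes, 9 near RefSeq starts, 17 with CTCF, 30 CpG-rich and 26 other. The other sites held the muscle E-box at 16.98% and TTGGCA at 12.9%. Experimentally tested VISTA enhancers listed by RefSeq overlapped 23 sites, 0.914% (0.610 to 1.37), against 0.372% (0.338 to 0.409) of all replicate 1 peaks, 0.625% (0.518 to 0.755) of unpartnered intergenic ones and 1.21% (0.708 to 2.06) of shared peaks beyond 50 kb. The intervals of the last 2 overlap that of the sites. Among the 23 were sites near Bhlhe41 (10.3 and 3.45) and Fos (7.61 and 1.74).

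The sites were nearest to 2017 of 21938 protein-coding genes (9.19%). A shared promoter peak was present at 1077 of these (53.4%) against 44.8% of all coding genes. The nearest gene is a matter of position and says nothing of which gene a site acts on. Genes with long intergenic flanks have more room for sites, and the gene lists that follow were read as counts beside that 9.19%.

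Lists of muscle structural genes went both ways beside the 9.19% of all genes. None of 20 fast-fibre and sarcomere genes, 11 developmental muscle genes or 14 excitation-contraction coupling genes was nearest to a site, and of 18 muscle metabolism genes only Ldha, lactate dehydrogenase A, was, 2.47 kb upstream (4.77 and 1.40). Slow-fibre genes had 3 of 12. Myl3, the slow essential myosin light chain, had sites 13.2 kb (9.59 and 2.65) and 13.55 kb downstream of its TSS (8.38 and 2.65), and both were paired with the same replicate 2 height. Myl2, the slow regulatory light chain, had a site 11.8 kb upstream (5.00 and 2.72) and Tnni1, slow troponin I, had a site 6.39 kb downstream (3.42 and 2.23). All 4 were above the medians of 3.20 and 1.54 in both libraries. The second Myl3 site holds the E-box shown in capitals above.

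Of 27 myogenic regulators and satellite cell genes, 5 were nearest to a site. Nfix, an NFI factor that acts in fetal myogenesis, had the tallest, 10.7 kb upstream (16.4 and 3.44), CpG-rich and with a TTGGCA and a GC box. Pax7, which marks satellite cells, had a site 25.3 kb upstream (6.09 and 2.44) and Eya2, a transcriptional coactivator, a site 13.34 kb downstream (4.90 and 2.54), both with a CTCF motif. Eya4 had a site 33.7 kb downstream that was taller in replicate 2 (2.70 and 3.34). Myogenin, Myog, had a site 13.8 kb upstream of its TSS (3.29 and 1.07) and near a RefSeq start. Its height was close to the median in replicate 1 and below the lower quartile in replicate 2. Myod1 and Myf5 had none.

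Signal-responsive genes were nearest to a site in larger shares than the 9.19% of all genes. Of 22 immediate-early genes 9 were nearest to a site, with 16 sites in all. The tallest, 1.22 kb upstream of Ier2, stood at 14.04 and 3.41 and holds 2 ETS matches and a GC box. Fos, a subunit of AP-1, had sites 11.3 kb downstream (10.8 and 2.55), 18.5 kb upstream (7.61 and 1.74), 36.5 kb upstream (9.36 and 0.943) and 1.69 kb upstream (1.36 and 2.15). The first 3 were taller in replicate 1 and the last in replicate 2. Nr4a1, an orphan nuclear receptor, had a site 7.83 kb upstream (9.88 and 2.15), and Egr1, a zinc-finger factor, 26.3 kb downstream (9.15 and 1.70). Btg2, an antiproliferative gene, had a site 13.98 kb upstream with a CArG box (4.18 and 2.43). All 22 immediate-early genes had a promoter peak in replicate 1 and 20 in replicate 2.

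Of 18 circadian clock genes 6 had a site, with 10 sites in all. The tallest was 27.2 kb upstream of Hlf, a clock-controlled PAR bZIP factor (12.4 and 3.44). The repressor Bhlhe41 had a site 9.46 kb downstream (10.3 and 3.45) and its relative Bhlhe40 had 4 sites, between 1.54 and 5.63 in replicate 1 and between 1.70 and 2.46 in replicate 2. Per1 had a site 2.68 kb upstream (4.23 and 3.49), near equal in both libraries. Of 16 genes of muscle growth and atrophy 7 had a site, with 10 in all. Foxo3, a factor that induces atrophy genes, had 3, the tallest 1.02 kb upstream (16.6 and 2.47). Mt2, a metallothionein, had a site 5.20 kb upstream with near equal heights (4.36 and 4.30). Fst, follistatin, the antagonist of myostatin, had one of the lower sites (0.585 and 0.740).

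Lists of other cell types were mixed. Macrophage and leukocyte genes had 5 of 12, with 11 sites, although only 1 of the 12 had a promoter peak in either library. Cx3cr1, a chemokine receptor, had a site 3.48 kb upstream (3.48 and 2.82) and Adgre1, the F4/80 antigen, 22.8 kb upstream (5.04 and 2.29). Of the 3 genes Laptm5, Fcgr3 and Mrc1, Laptm5 had 2 sites with a CTCF motif and Fcgr3 had 2 at tRNA genes. Neuronal genes had 3 of 12: Slc17a7 1.62 kb upstream (20.9 and 2.29), Stmn2 34.6 kb downstream (4.44 and 1.28) and Snap25 34.5 kb upstream (1.52 and 1.61), the first 2 with a CTCF motif. Fibro-adipogenic and tendon genes had 3 of 18, namely Col1a1, Postn and Tgfbi, Schwann cell genes 1 of 11 (Pmp22) and adipocyte genes 1 of 9 (Lep). Endothelial and mural genes had 0 of 15 and limb position genes 0 of 16. The numbers of genes with a site were the same in each of these lists without the sites at tRNA genes, which include 2 of the 11 macrophage and leukocyte sites.

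Most sites stood alone. Joined across gaps of up to 12.3 kb (the next wider gap was 12.6 kb), they formed 2109 runs, of which 1815 were single sites (72.1% of all sites). The largest run held 15 sites over 34.0 kb (chr2:167263601-167297580), 14 of them nearest to B4galt5, a galactosyltransferase gene, and 1 to Ptgis. Its sites were low, with medians of 0.227 and 0.364 and a highest of 2.32 and 1.05, and none had a CTCF motif or a tRNA gene. Within the same stretch replicate 1 had 23 peaks and replicate 2 had 34, with these same medians. A run of 6 near Zfp36l2, which encodes an mRNA decay factor, was lower still (0.107 to 0.197 and 0.225 to 0.322). Of the 24 sites under a height of 0.3 in replicate 1, 12 lay in the B4galt5 run, 6 in the Zfp36l2 run, and the other 6 were all at least 50% repeated. In both runs the median height was greater in replicate 2, the reverse of most sites.

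Of the next runs some held tRNA sites and others none. Those with tRNA sites included 6 sites near Dhx37 (4 at tRNA genes), 7 near Olfr1423 (5), 6 near Fcgr4 and Fcgr3 (5), 6 near Cfap126 (6), 6 near Aurkb and Ctc1 (6), 5 near Hfe2 (5), 5 near Borcs6 and Tmem107 (3) and 5 near Olfr1368 and Trim27 (3). The runs of 6 near Tnrc18 and Zfp36l2 and those of 5 near Pcdh7, Rpl14 and Actg1 had none. The Cfap126 run, over 9.74 kb, had heights from 2.78 to 8.15 in replicate 1 and from 1.22 to 3.15 in replicate 2. The genes nearest to the most sites were B4galt5 (14), Olfr1423 (7), Cfap126, Dhx37, Tnrc18, Trim27 and Zfp36l2 (6 each), followed by Actg1, Hfe2, Pcdh7, Ptma and Rpl14 with 5 each. Actin gamma 1, Actg1, had sites from 0.436 to 6.25 in replicate 1 and from 0.772 to 2.74 in replicate 2.

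Sites in repeated sequence behaved differently from the rest in height. At 46 sites, 1.83% (1.37 to 2.43), at least 50% of the 36-base words occur elsewhere in the genome, against 0.779% of all replicate 1 peaks. Their median heights were 0.740 and 1.17, and 34 of the 46 (73.9%) were taller in replicate 2, against 316 (12.8%) of the other 2470. The labels and file headers do not say how reads that fit several places were handled. The largest ratio towards replicate 2 was at Gm10718, 1.04 kb upstream (0.901 and 9.43, log2 ratio -3.39), in sequence that was 94.7% repeated. The largest towards replicate 1 was 16.7 kb upstream of Erc1, which encodes a synaptic active zone protein (15.9 and 0.772, log2 ratio 4.37), in sequence with no repeated words. The Pak3 site on the X, 35.5 kb upstream, was the second tallest of replicate 2 (12.6 and 27.7). The Pak3, Erc1 and Gm10718 sites were chosen after their values were seen.

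At the limits of the rule the values were as follows. Just inside 50 kb were sites near Chst14 (49.957 kb, 4.38 and 2.44), St3gal5 and Cstad, and just outside were peaks near Tmem92 (50.078 kb, 2.09 and 1.23), Ryk and Ier5. Just beyond 1 kb from a TSS were sites near Cln8 (1.004 kb, 1.38 and 1.55), Efna1 and Foxo3, and just within it peaks near Setbp1 and Gadd45g. At an overlap of exactly 50% were sites near Wsb1 (4.51 and 2.77), Nrp1 and Rnf112, and just under it peaks near Jdp2 (49.4%, 3.23 and 1.45), Rassf10 and Med13.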

How the data were processed

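DNase-seq was measured in 2 libraries of 1 group. The peak height is a signal that the authors normalized before deposit, per the deposited peak lists; the footprint score deposited was the same for every footprint and was not used. The short intervals carry a p-value adjusted as a false discovery rate (FDR), deposited by the authors up to 0.05. Per the labels the assembly is mm10. For the aligner, peak caller, footprint caller and normalization, the name was not given in the sources used here. Members, gene lists and motifs were chosen with earlier results of these data known. Overlaps, places, motifs (32, in the central 150 bp and 1 kb to either side), repeated 36-base words and runs were computed in Python 3.11.15 with numpy 2.4.6, pandas 2.3.3, scipy 1.17.1 and numba 0.67.0, and checked on simulated data. tRNA genes, transcripts and enhancers came from RefSeq for GRCm38. Of 279 gene list entries 2 were not found among GENCODE M21 coding genes. Sites named were the 10 with the best sum of height ranks, those nearest to genes of the lists, the genes with the most sites, the best site per motif in footprints of both libraries, the largest runs and the 3 sites nearest each limit. Other features were chosen after their values were seen and are said to be. No test was run, since 1 group of 2 libraries allows none and sites are not replicates. Some results are not reported here.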

Additional observations from a re-analysis of the deposited data

How the results depend on the processing

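Each of 8 results was recomputed under alternatives, 86 values in all, of which 55 stayed within the interval of the value reported (for the number of sites, within 1.5 times). The number of sites was 4921 with the longer peak lists and 1318 with the upper part of heights in each list, and between 3297 and 19633 with a replicate left out. Median height in replicate 1 was 2.24 with the longer lists, 3.32 with an overlap of 50% of both peaks and 4.22 in the upper part of heights; in replicate 2 it was 1.10, 1.61 and 2.07. With the other library left out the medians were 1.15 for replicate 1 and 1.37 for replicate 2; a library left out gives no value of its own. The footprint share in replicate 1 was 95.04% with the longer lists, 98.6% with 50% of both peaks, 99.5% in the upper part of heights and 94.1% without replicate 2. In replicate 2 it was 84.03%, 97.8% and 98.6% under these, 94.4% with 1 bp of overlap, 94.5% with the sites taken from replicate 2 and 85.1% without replicate 1. The CTCF share was 18.5%, 25.6% and 25.04% with the longer lists, 50% of both peaks and the upper part, and 9.03% to 16.3% with a replicate left out. The AP-1 share was 3.70% over whole peaks. With a replicate left out it ran from 3.00% to 3.08%. The repeated share was 0.759% in the upper part of heights, 2.54% with 24-base words and 1.31% to 2.49% with a replicate left out. The cause of these shifts was not tested. Merging overlapping peaks, a promoter distance of 2 kb, leaving out sites at tRNA genes and leaving out repeated sites (the last 2 chosen after seeing the data) moved none of the results they were run for; the last was not run for the repeated share itself. No paired analysis was possible because there is 1 group of 2 libraries. The lowest sites stood at 17 and 19 steps of height, and the part of read depth in them was not tested. Absence of a peak in replicate 2, with fewer peaks, is not absence of opening. Footprints were called on the same reads as peaks.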

Other observations

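Intergenic replicate 1 peaks of the same places without a partner numbered 17117, and 2842 of them (16.6%) held an interval at a false discovery rate of at most 0.05 in replicate 2. A further 166 replicate 1 peaks of these places were overlapped by a replicate 2 peak over less than the limit. The 2516 sites paired with 2469 distinct replicate 2 peaks, and 94 sites shared 47 of these. Where 2 sites share a partner, as at Myl3, they have the same replicate 2 height.

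Of the 44 tRNA genes within 1 kb of a protein-coding TSS, 39 had a replicate 1 peak, 39 a replicate 2 peak and 35 a shared peak (79.5%). Of the 73 tRNA genes beyond 50 kb from a gene, 7 had a replicate 1 peak and 3 a shared peak (4.11%). None of these is among the sites described.

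The EBF motif, that of a family with members in fat, B cells and neurons, was in 22 sites, 0.874% (0.578 to 1.32), against 0.278% at 1 kb from them. It was in 0.765% of all replicate 1 peaks and 0.742% of unpartnered intergenic ones, both inside the interval of the sites. Of its 22 matches in the sites 90.9% lay in a replicate 1 footprint and 27.3% in a replicate 2 footprint. The motif was picked from the 32 searched after its values were seen.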
